A study of Mus musculus with 14 samples.

Results

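Enteroendocrine cells are the scattered hormone-secreting cells of the gut epithelium, and 10 genes that encode their hormones, granins and serotonin-making enzyme were followed across WT and Smad4 KO colon epithelium with and without dextran sulfate sodium (DSS). The 10 genes were chosen by name from 37680 genes in the count table, and all 10 passed the filter on low counts that left 15127 genes for testing. They are Sct (secretin), Gcg (proglucagon), Pyy (peptide YY), Insl5 (insulin-like peptide 5), Nts (neurotensin), Cck (cholecystokinin), Sst (somatostatin), Tph1 (tryptophan hydroxylase 1), Chga (chromogranin A) and Chgb (chromogranin B). Epithelium was stripped from the whole colon of adult mice of a C57/BL6-enriched background with EDTA, and polyA RNA was sequenced. The 14 libraries fell into 4 groups, namely WT on water (n = 4), WT after 3 d with DSS at 2.5% in drinking water (n = 3), mice labelled Smad4 knockout on water (n = 4) and Smad4 knockout after the same DSS course (n = 3). In the knockout mice a tamoxifen-inducible Cre recombinase under the villin promoter deletes floxed Smad4 in epithelial cells along the intestine, so that enteroendocrine cells and the other epithelial lineages lose it together. The methods mention controls beside the mutants when the Cre line is described, but do not state whether the WT mice sequenced here carried Cre or the floxed allele or received tamoxifen. DSS damages the lining of the colon and is the usual agent for experimental colitis.

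Enteroendocrine cells arise from crypt stem cells by way of progenitors that express the transcription factor Neurog3, and each mature cell makes a mixture of hormones that depends on its position along the gut and along the crypt. In the colon the main kinds are L cells, which release proglucagon products, peptide YY and, in the distal part, insulin-like peptide 5, enterochromaffin cells, which make serotonin through Tph1, and D cells, which release somatostatin. Granins such as chromogranins A and B pack the hormones into dense-core granules in all of these kinds. Smad4 is the shared partner of the SMAD proteins that carry BMP and TGF-β signals to the nucleus, and BMP signalling is known to change which hormones an enteroendocrine cell makes as it moves up the epithelium.

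The libraries held 12882827 to 26087231 counts each, and the 10 genes together held 0.0221% to 0.0558% of them. Mitochondrial genes took 30.6% and 32.8% of the counts in WT water replicates 3 and 4 and 21.4% in Smad4 KO water replicate 4, against at most 8.23% in the others. Smad4 had 2372 to 3188 normalized counts in WT on water and 3407 to 3649.6 in WT after DSS, 808 to 878 in Smad4 KO after DSS and 702 to 936 in Smad4 KO water replicates 2 to 4. Replicate 1 of the group labelled Smad4 KO on water had 3164, at the WT level, so this library went against its label. Smad4 KO on water means the 4 libraries so labelled, and the genotype differences of the 10 genes on water are given with and without it. The paper's figure legends give 3 replicates for this group and do not say which libraries these were. Epithelial markers were high in all libraries, with at least 11398 counts of Epcam and 40487 of Krt8 in each. Enteric neurons and mast cells are other gut cells known for several of these peptides or for Tph1. Of 12 enteric neuron genes 5 passed the filter, and the list summed to 73.7 to 122 normalized counts in WT on water, 118 to 229 in Smad4 KO on water, 92.4 to 102 in WT after DSS and 102 to 124 in Smad4 KO after DSS, with at most 7 counts of Elavl3 in any library. Of 11 mast cell genes 5 passed, and the list, largely Kit, summed to 937 to 1489, 1094 to 1597, 871 to 1285 and 945 to 1169 in the same order, with at most 11 counts of Cpa3 and 4 of Ms4a2. Their part in the results was not tested. The labels do not name the animals, and p-values measure the spread between these samples.

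Relative to their length, the genes stood in much the same order in all 4 groups. Level here means normalized counts per kb of exon, the only scale on which genes are compared. Pyy was highest in 14 of 14 libraries and made up 45.4% to 48.6% of the summed per-kb level of the 10 genes in the group means. Insl5 was second in 12 of 14 libraries and in all 4 group means. In WT on water, Pyy had 4031 ± 382 (SD, n = 4) and Insl5 1551 ± 220.4 (SD, n = 4) normalized counts per kb, and their ranges did not meet each other or that of the next gene. Chga at 651 ± 173 (SD, n = 4), Gcg at 586 ± 233 (SD, n = 4), Sct at 549.5 ± 189 (SD, n = 4) and Chgb at 485 ± 185 (SD, n = 4) followed, and each overlapped the next. Sst followed, overlapping Chgb, at 248 ± 60.9 (SD, n = 4), above Nts at 92.1 ± 53.7 (SD, n = 4) and Cck at 76.0 ± 31.8 (SD, n = 4), which overlapped. Tph1 was lowest in 13 of 14 libraries, at 28.8 ± 16.1 (SD, n = 4) in WT on water. Ranks by group mean moved most for Sct and Chgb. Sct held rank 5 of 10 in WT on water and rank 6 in WT after DSS, but rank 8 in both Smad4 KO groups, at 145 ± 85.5 (SD, n = 4) on water, or 107 ± 45.7 (SD, n = 3) without replicate 1, and 81.7 ± 27.9 (SD, n = 3) after DSS. Chgb held rank 6 in WT on water and rank 5 in WT after DSS, and rank 4 and rank 3 in the Smad4 KO groups.

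**Figure D1:**
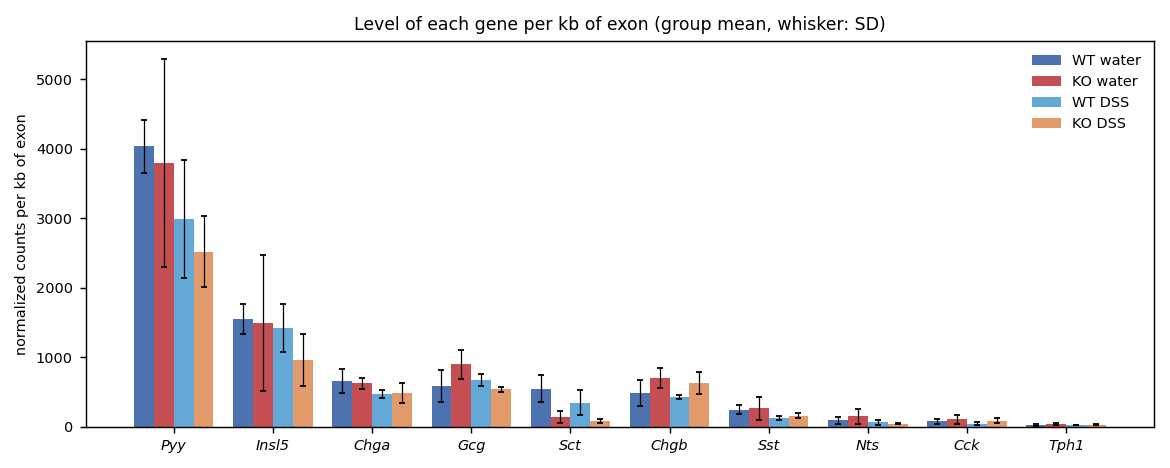
Levels of the 10 genes in normalized counts per kb of exon, as bars for the mean of WT water (n = 4), Smad4 KO water (n = 4), WT DSS (n = 3) and Smad4 KO DSS (n = 3), with whiskers for the SD. Pyy stands above the rest in every group, and the Sct bars are at 549.5 and 347 in WT against 145 and 81.7 in Smad4 KO.

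Sct, which encodes secretin, a hormone that drives bicarbonate secretion and is made by many enteroendocrine cells as they mature, had the largest genotype difference of the 10 genes in both treatments. It lies on mm9 at chr7:148464230-148465032 on the minus strand (ENSMUSG00000038580), with 534 exon bases and no overlapping gene. The 250 bases before its transcription start are shown beside those of Chga and Gcg. These are 2 other enteroendocrine genes that did not pass the test, and the start of the gene that fell can be read against theirs. The sequences come from RefSeq on GRCm38.p6, run 5′ to 3′ on the gene's strand at chr7:141279134-141279383 (minus strand), chr12:102554691-102554940 (plus strand) and chr2:62483654-62483903 (minus strand), and capitals mark CANNTG, the E-box core bound by basic helix-loop-helix factors such as Neurod1 and Neurog3.
Sct: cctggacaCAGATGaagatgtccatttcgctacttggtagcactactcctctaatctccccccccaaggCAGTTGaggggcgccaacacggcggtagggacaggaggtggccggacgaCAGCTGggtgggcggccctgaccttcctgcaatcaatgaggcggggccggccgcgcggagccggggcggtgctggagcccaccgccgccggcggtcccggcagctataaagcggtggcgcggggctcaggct
Chga: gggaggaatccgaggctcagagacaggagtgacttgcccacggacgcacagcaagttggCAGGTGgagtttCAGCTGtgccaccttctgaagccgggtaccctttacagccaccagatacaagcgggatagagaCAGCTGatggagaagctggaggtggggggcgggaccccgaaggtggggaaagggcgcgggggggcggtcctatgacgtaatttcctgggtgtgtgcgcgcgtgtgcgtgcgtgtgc
Gcg: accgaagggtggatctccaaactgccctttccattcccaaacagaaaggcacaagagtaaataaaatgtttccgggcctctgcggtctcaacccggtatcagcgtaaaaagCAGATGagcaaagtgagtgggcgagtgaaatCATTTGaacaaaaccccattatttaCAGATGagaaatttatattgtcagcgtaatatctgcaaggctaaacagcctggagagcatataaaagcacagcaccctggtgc
Each of the 3 windows held 3 E-boxes, those of Sct at -242, -181 and -132 from the start, those of Chga at -191, -179 and -116 and those of Gcg at -139, -108 and -83. CANNTG occurs in 66.2% of the 32851 mouse promoters of this length (both strands, as the motif reads the same on each), and 9 of the 10 genes held it, all but Tph1. The form CAGCTG was in 13% of promoters and in those of Sct, Chga and Nts. The SMAD palindrome GTCTAGAC, in 0.167% of promoters, was in none of the 10. A motif this rare is seldom met among so few promoters, so its absence here carries no information. The shorter motif CAGACA was in 17.1% of promoters and, of the 10 genes, in Tph1 alone. The base content differed, with 68.0% G and C before Sct, 62.4% before Chga and 44.8% before Gcg.

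After 3 d of DSS, Sct fell in Smad4 KO relative to WT. Sct had 121, 142 and 292 normalized counts in the 3 WT libraries and 60.7, 33.5 and 36.6 in the 3 Smad4 KO libraries. Every Smad4 KO library was below every WT library, and WT replicate 3 stood well above the other two of its group. The log2 fold change was -2.08 (SE 0.38, edgeR adjusted p = 0.046), or 4.24-fold lower. Sct was the 1 of 10 genes called, where 0.747% of all tested genes were called in either direction and 0.416% as lower. The call was narrow. It was lost on leaving out WT DSS replicate 2 or 3 or any of the Smad4 KO DSS replicates (edgeR adjusted p between 0.072 and 0.17, log2 fold change between -2.40 and -1.59), with the mitochondrial share as a covariate (adjusted p = 0.081) and in 1 edgeR model of all 14 libraries (adjusted p = 0.36) or of 13 (adjusted p = 0.15), while DESeq2 gave 8.2e-07. Library names carry letter prefixes of unstated meaning, and among the libraries named with D after DSS, Sct ran from 121 to 142 in WT (n = 2) and from 33.5 to 60.7 in Smad4 KO (n = 3). In a fit of all libraries with the prefix as a block the difference was -1.59 (edgeR adjusted p = 0.41).

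On water the difference in Sct had the same sign and a like size. Sct had 392, 195, 218 and 368 normalized counts in the 4 WT libraries and 139, 70.4, 28.8 and 71.7 in the 4 libraries labelled Smad4 KO. The groups did not overlap, and the highest of the second group was the library labelled replicate 1, in which Smad4 was at the WT level. The log2 fold change was -1.92 (SE 0.42, edgeR adjusted p = 0.15), which did not pass the threshold. Without that library it was -2.37 (edgeR adjusted p = 0.072), with a mean of 57.0 ± 24.4 (SD, n = 3) against 293 ± 101 (SD, n = 4). The test called 1 gene of all tested on water (0.00661%) and 13 without that library (0.0859%), and in 1 edgeR model of all 14 libraries, where 1276 genes were called, Sct had an adjusted p of 0.024. Within name prefixes that held both genotypes on water, Sct was 218 in WT against 70.4 in Smad4 KO and 139 in the replicate 1 library with WT-level Smad4, and 368 in WT against 71.7 in Smad4 KO.

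Sct was the only one of the 10 genes whose genotypes did not overlap in either treatment, a lower-in-both pattern that 1.36% of all tested genes had and 2.03% when the replicate 1 library with WT-level Smad4 was left out. The mean of the genotype differences on water and after DSS, a contrast chosen after the data were seen, was -2.0 on the log2 scale for Sct (SE 0.32, edgeR adjusted p = 0.011) over 14 libraries and -2.23 (SE 0.30, edgeR adjusted p = 0.0020) over 13. Of all tested genes 2.19% and 3.31% were called by this contrast, and Sct ranked 18 of 15127 by p in both fits. None of the other 9 genes was called by it. The DSS response of Sct did not differ detectably between the genotypes, with a difference of -0.17 (SE 0.63, edgeR adjusted p = 0.95).

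**Figure D2:**
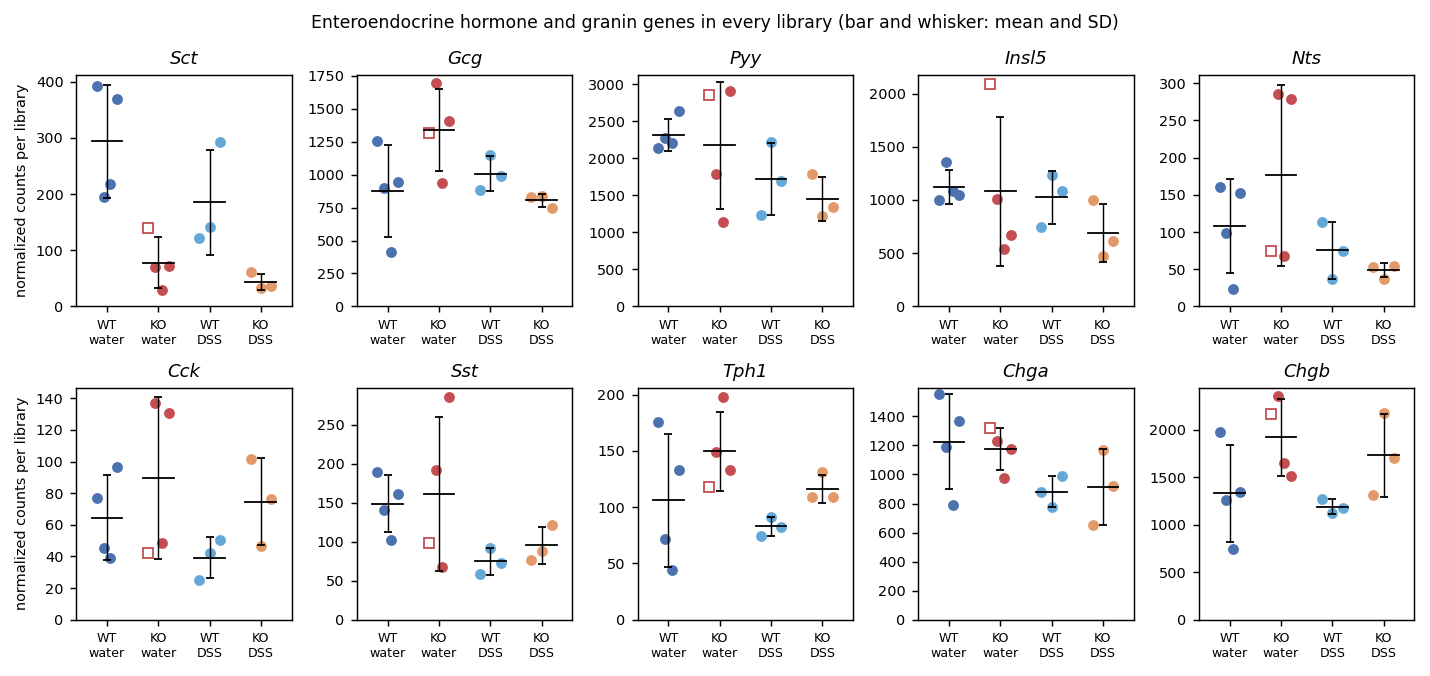
Normalized counts of the 10 genes, 1 panel per gene and 1 point per library, in WT water, Smad4 KO water, WT DSS and Smad4 KO DSS, with a bar for the group mean and whiskers for the SD, and an open square for replicate 1 of Smad4 KO on water. In the Sct panel every point labelled Smad4 KO, open square included, is below every WT point of the same treatment, and in the Chga panel the genotypes overlap.

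Bulk RNA cannot tell fewer enteroendocrine cells from less of a transcript per cell, but ratios within a library show how the genes moved against each other. Chga (chr12:103793179-103803237), the granin used most widely to mark these cells, had 1552, 1190.5, 791 and 1370.0 normalized counts in WT on water and 1324, 1228, 975 and 1173 in Smad4 KO on water. After DSS it had 879, 776 and 989 in WT and 652, 1169.9 and 920.4 in Smad4 KO. The genotypes overlapped in both treatments, with log2 fold changes of -0.06 (SE 0.20, edgeR adjusted p = 0.88) on water, or -0.12 (edgeR adjusted p = 0.82) without replicate 1, and 0.06 (SE 0.19, edgeR adjusted p = 0.91) after DSS. Sct counts per 100 Chga counts were 25.3, 16.4, 27.6 and 26.9 in WT on water and 10.5, 5.73, 2.96 and 6.11 in Smad4 KO on water, and 13.8, 18.3 and 29.6 in WT and 9.31, 2.86 and 3.97 in Smad4 KO after DSS. The 6 Smad4 KO libraries with low Smad4 were thus below all 7 WT libraries, over both treatments, and so was replicate 1 on water (10.5), whose Smad4 was at the WT level. Sct per 100 counts of the other 9 genes ran from 2.10 to 4.70 in WT and from 0.512 to 1.03 in the 6 libraries, and was 1.38 in replicate 1. Both ratios were chosen after the values were seen.

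Chgb (chr2:132607014-132620815), another chromogranin, went the other way in relation to Chga. It had 1273, 1121 and 1173 normalized counts in WT and 1309, 2173 and 1706 in Smad4 KO after DSS. The groups did not overlap, though the lowest Smad4 KO library was close to the highest WT library, and the log2 fold change was 0.54 (SE 0.16, edgeR adjusted p = 0.17; DESeq2 adjusted p = 0.038). On water it had 1980.1, 1257, 743 and 1340.1 in WT and 2164, 2360.0, 1646 and 1510.0 in Smad4 KO, which overlapped, with a log2 fold change of 0.53 (SE 0.26, edgeR adjusted p = 0.28), or 0.47 (edgeR adjusted p = 0.41) without replicate 1. Chgb counts per Chga count were 0.94 to 1.28 in WT and 1.29 to 1.92 in Smad4 KO on water, and 1.19 to 1.45 in WT and 1.85 to 2.01 in Smad4 KO after DSS. The ratio was 1.63 in the replicate 1 library with WT-level Smad4 and 1.29 to 1.92 in the other 3 of that group. Within each treatment it was higher in every library labelled Smad4 KO than in every WT library, with or without replicate 1 and by little on water, and it was a description chosen after the values were seen.

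**Figure D3:**
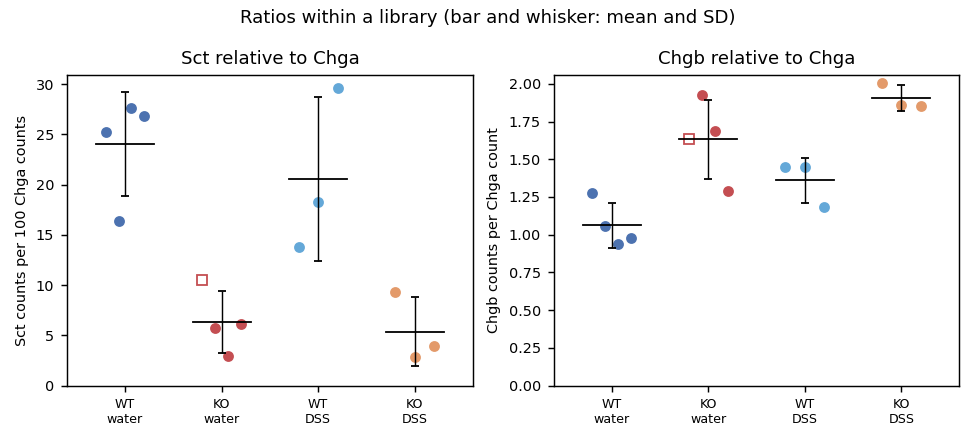
Counts of Sct per 100 counts of Chga (left) and of Chgb per count of Chga (right), 1 point per library in the 4 groups, with a bar for the mean, whiskers for the SD and an open square for replicate 1 of Smad4 KO on water. The points labelled Smad4 KO, open square included, lie below the WT points on the left and above those of the same treatment on the right.

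The hormones of L cells did not pass edgeR's test between the genotypes, though Gcg did on water with the name prefix as a block. Gcg (mm9 chr2:62312587-62321707), whose product is cut to GLP-1 and GLP-2 in these cells, had 879.6, 1146 and 992 normalized counts in WT and 828, 839.7 and 749.7 in Smad4 KO after DSS. The groups did not overlap but lay close, and the log2 fold change was -0.32 (SE 0.12, edgeR adjusted p = 0.25). On water Gcg had 1255, 895, 412 and 942 in WT and 1313, 1695, 939 and 1407 in Smad4 KO. The groups overlapped, with WT replicate 3 far below the others and a log2 fold change of the other sign, 0.61 (SE 0.29, edgeR adjusted p = 0.26), or 0.62 (edgeR adjusted p = 0.34) without replicate 1. With the prefix block it was 1.28 (edgeR adjusted p = 0.015), in a fit that called 2018 of 15127 tested genes. Within prefixes that held both genotypes on water, Gcg was 412 in WT against 1695 in Smad4 KO and 1313 in replicate 1. The other such prefix had 942 in WT against 1407 in Smad4 KO. Pyy (chr11:101967990-101969146), which slows transit and curbs appetite, had 1240.3, 2217 and 1702 in WT and 1785, 1220.2 and 1342 in Smad4 KO after DSS, and 2143 to 2637 in WT and 1147 to 2915 in Smad4 KO on water. The ranges overlapped in both, with log2 fold changes of -0.24 (SE 0.21, edgeR adjusted p = 0.61) and -0.09 (SE 0.26, edgeR adjusted p = 0.87), the second being -0.24 (edgeR adjusted p = 0.66) without replicate 1.

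Insl5 (mm9 chr4:102690477-102699447), a relaxin-family peptide of distal colonic L cells, and Nts (chr10:101944394-101953052), which acts on motility and secretion, showed wide spreads among the libraries labelled Smad4 KO on water. Insl5 had 999, 1357, 1086 and 1051 normalized counts in WT and 2093, 1012, 543 and 672 in Smad4 KO on water, and 749, 1239 and 1085 in WT and 998, 472 and 612 in Smad4 KO after DSS. The highest of the 14 was the replicate 1 library with WT-level Smad4, and the groups overlapped with and without it. The log2 fold change on water was -0.06 (SE 0.35, edgeR adjusted p = 0.94) with that library and -0.59 (edgeR adjusted p = 0.23) without it, and -0.56 (SE 0.26, edgeR adjusted p = 0.35) after DSS. The summed level of 6 distal Hox genes, which mark position along the colon, was 11168 normalized counts in that library and 4323, 6586 and 6709.9 in the other 3 of the group, against 7281 to 12339 in WT on water. After DSS it was 6926 to 7022 in Smad4 KO and 6699 to 9303 in WT, and the part of colon position in the Insl5 values was not tested. Nts had 160.0, 98.5, 22.8 and 152 in WT and 74.0, 285, 68.3 and 278 in Smad4 KO on water, and 114, 36.6 and 75.0 in WT and 53.4, 37.5 and 54.9 in Smad4 KO after DSS. The genotypes overlapped in both treatments, with log2 fold changes of 0.69 (SE 0.59, edgeR adjusted p = 0.53), or 0.95 (edgeR adjusted p = 0.41) without replicate 1, and -0.63 (SE 0.38, edgeR adjusted p = 0.48).

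Among the remaining genes, Tph1 (mm9 chr7:53902500-53927907), the rate-limiting enzyme of serotonin synthesis in enterochromaffin cells, had 74.5, 91.5 and 82.6 normalized counts in WT and 109, 131 and 109 in Smad4 KO after DSS. The groups did not overlap, and the log2 fold change was 0.49 (SE 0.20, edgeR adjusted p = 0.28). Mast cells also express Tph1. Of the 11 genes of a mast cell list, Cpa3, Mcpt4, Tpsb2, Tpsab1, Fcer1a and Ms4a2 did not pass the filter. The other 5 were tested, and none was called between the genotypes. Their median log2 fold change was 0.53 after DSS (3 of 5 higher in Smad4 KO, 1 at an unadjusted p below 0.05) and 0.69 on water (4 of 5 higher, 2 at an unadjusted p below 0.05), beside 0.49 for Tph1 in both, and their part in the Tph1 values was not tested. Tph1 on water had 176, 71.9, 44.0 and 133 in WT and 118, 149, 198 and 133 in Smad4 KO, which overlapped (log2 fold change 0.49, SE 0.39, edgeR adjusted p = 0.50; without replicate 1, 0.59, adjusted p = 0.49). Cck (chr9:121398943-121404807), which stimulates the gallbladder and pancreas, had 24.8, 42.1 and 50.6 in WT and 102, 46.3 and 76.2 in Smad4 KO after DSS. These overlapped, and the difference of 0.93 (SE 0.36, edgeR adjusted p = 0.27) was the second largest of the 10 after Sct and did not pass. Cck on water had 39.1 to 96.3 in WT and 42.3 to 137 in Smad4 KO, which overlapped (log2 fold change 0.48, SE 0.47, edgeR adjusted p = 0.60; without replicate 1, 0.72, adjusted p = 0.43). Sst (chr16:23889667-23890930), the inhibitory peptide of D cells, had 58.9, 92.4 and 72.5 in WT and 76.4, 87.7 and 122 in Smad4 KO after DSS, which overlapped (log2 fold change 0.36, SE 0.26, edgeR adjusted p = 0.55). On water Sst overlapped too, with 103 to 189.6 in WT and 67.5 to 286 in Smad4 KO (log2 fold change 0.11, SE 0.41, edgeR adjusted p = 0.90; without replicate 1, 0.29, adjusted p = 0.75).

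As a group after DSS, 5 of the 10 genes were higher and 5 lower in Smad4 KO, and the median difference was -0.09 on the log2 scale against 0.00 over all tested genes. An unadjusted p below 0.05 was found for Sct, Gcg, Cck, Chgb and Tph1, 5 of 10 where 15.4% of all tested genes had one. Beside Sct, the genotypes did not overlap for Chgb and Tph1 (higher) and Gcg (lower), a count of 4 of 10 where 21.7% of all tested genes did not overlap in either direction. On water 6 were higher and 4 lower, with a median of 0.29, or 0.38 without replicate 1. Sct alone did not overlap, where 5.2% of all tested genes were lower without overlap (7.66% without replicate 1). edgeR called 0 of the 10 on water, with 1 (Sct) at an unadjusted p below 0.05, as 20.4% of all tested genes had, and DESeq2 called Sct (adjusted p = 0.0017).

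**Figure D4:**
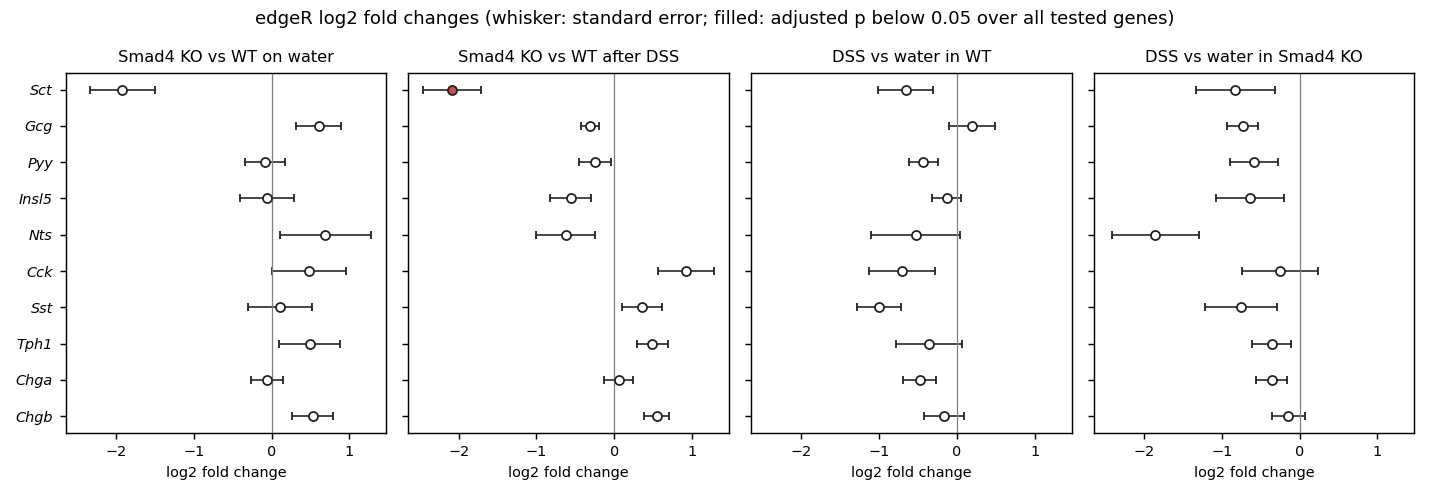
edgeR log2 fold changes of the 10 genes in 4 comparisons, each a point with its standard error, filled where the adjusted p was below 0.05. The single filled point is Sct in Smad4 KO against WT after DSS, at -2.08, and in Smad4 KO all 10 points for DSS against water are below 0.

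For DSS against water edgeR called none of the 10 genes in either genotype and DESeq2 called Sst in WT, and most genes had lower means after DSS. In WT, 9 of 10 were lower after DSS than on water, their median difference being -0.45 on the log2 scale where all tested genes had -0.01 and 51.4% of them were lower. Sst had the largest difference. It had 189.6, 141, 103 and 161 normalized counts on water and 58.9, 92.4 and 72.5 after DSS, and every DSS library was below every water library. The log2 fold change was -1.0 (SE 0.28, edgeR adjusted p = 0.10; DESeq2 adjusted p = 0.014). It was the 1 of 10 genes without overlap, where 11.6% of all tested genes were lower without overlap. Pyy differed by -0.43 (SE 0.18, edgeR adjusted p = 0.19) and Chga by -0.48 (SE 0.21, edgeR adjusted p = 0.20), and these 3 genes had an unadjusted p below 0.05. edgeR called 0 of all tested genes in WT (0%), with 24.2% at an unadjusted p below 0.05, and DESeq2 called 1641, of which Sst was 1.

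In Smad4 KO, 10 of 10 genes were lower after DSS than on water, with a median of -0.61 against -0.02 over all tested genes, 52.7% of which were lower. All Smad4 KO libraries after DSS were named with the prefix D, and none of those on water was. Treatment and name prefix therefore cannot be told apart between these groups. Mitochondrial genes took 21.4% of the counts in Smad4 KO water replicate 4 and at most 5.2% in the Smad4 KO DSS libraries. With this share as a covariate Cck was 0.44 and Sst 0.10, and with replicate 1 left out as well Sct was 0.23, Pyy 0.31, Cck 0.17, Sst 0.15 and Insl5 0.028. edgeR called 1 of all tested genes in Smad4 KO (0.00661%) and 0 of the 10, with 2 (Gcg and Nts) at an unadjusted p below 0.05, as 6.37% of all tested genes had, and DESeq2 called 0 of the 10. Gcg had 1313, 1695, 939 and 1407 normalized counts on water and 828, 839.7 and 749.7 after DSS, without overlap, and differed by -0.73 (SE 0.20, edgeR adjusted p = 0.61). Nts had 68.3 to 285 on water and 37.5 to 54.9 after DSS, also without overlap, and differed by -1.85 (SE 0.56, edgeR adjusted p = 0.68). Neither passed the test, and 4.28% of all tested genes were lower without overlap. The difference between the Smad4 KO and WT responses was largest for Nts at -1.32 (SE 0.85, edgeR adjusted p = 0.70) and Gcg at -0.93 (SE 0.38, edgeR adjusted p = 0.64), and none of the 10 passed (0 by DESeq2 too). Gcg alone had an unadjusted p below 0.05, as 7.5% of all tested genes had, and 0.00661% were called. When the replicate 1 library with WT-level Smad4 was left out, all 10 genes were still lower after DSS, the median being -0.44, and Gcg, Tph1 and Nts did not overlap, where 6.47% of all tested genes were lower without overlap.

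The genes differed in how much they varied over the 14 libraries. The ratio of the highest to the lowest library was 13.6 for Sct and 12.5 for Nts, 5.52 for Cck, 4.85 for Sst, 4.51 for Tph1, 4.43 for Insl5 and 4.11 for Gcg, and 3.18 for Chgb, 2.54 for Pyy and 2.38 for Chga. For Gcg, Chgb, Tph1 and Nts the lowest library was WT water replicate 3, one of the libraries with a mitochondrial share above 20%. Pearson correlations of log2(CPM + 1) over the 14 libraries, which share the groups and the depth, are given as a description. They were highest for Chgb with Tph1 (0.78), Gcg with Nts (0.73), Cck with Sst (0.73) and Pyy with Insl5 (0.71). With group means taken out, Chga with Chgb reached 0.88. Sct had its highest with Insl5 (0.63) and Pyy (0.58). Among 11578 genes with a mean of at least 50 normalized counts, the one most like Sct over the libraries was Sult1a1, a phenol sulfotransferase, with a correlation of 0.94. Sult1a1 had 4948 to 10126 normalized counts in WT and 1288 to 1490.2 in Smad4 KO on water with 3857 in replicate 1, and 3451 to 4226 in WT and 1067 to 1468 in Smad4 KO after DSS, with its genotypes apart in both. The gene most like both Tph1 (0.90) and Chgb (0.88) was Nr4a1, an immediate early nuclear receptor. The gene most like Insl5 was Ptgr2 (0.91), that most like Cck was Mesdc2 (0.92) and that most like Pyy was Npc2 (0.88).

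The transcription factors of the lineage did not pass the test. Of 20 listed factors 19 were tested, and 0 were called after DSS (8 higher and 11 lower in Smad4 KO, median log2 fold change -0.04) or on water (10 higher and 9 lower, median 0.07). Neurog3, the progenitor factor, averaged 18.2 ± 6.63 normalized counts (SD, n = 3) in the WT and 23.0 ± 0.92 (SD, n = 3) in the Smad4 KO libraries after DSS (log2 fold change 0.34, edgeR adjusted p = 0.69). Atoh1, the secretory lineage factor, had the highest level per kb of the list and differed by -0.27 after DSS (edgeR adjusted p = 0.30), and Foxa1 and Foxa2 differed by 0.02 and -0.01. In Smad4 KO 18 of the 19 were lower after DSS than on water, with a median of -0.51, and none was called. Without replicate 1 on water, 16 were lower, with a median of -0.49. In WT 13 of the 19 were lower after DSS, with a median of -0.30, and none was called. Of all tested genes 52.7% were lower after DSS in Smad4 KO and 51.4% in WT.

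Among other genes of hormone making and release there was 1 call between the genotypes. Of 16 genes of secretory granules and exocytosis, all tested, 1 was called after DSS, where 0.747% of all tested genes were called in either direction. In this list 10 were higher and 6 lower in Smad4 KO. Rab3b, a small GTPase of regulated exocytosis, had 229, 109.8 and 139 normalized counts in WT and 31.4, 45.3 and 46.7 in Smad4 KO. The groups did not overlap, and Rab3b fell by 1.94 on the log2 scale (SE 0.31, edgeR adjusted p = 0.029). On water it had 37.8 to 173 in WT and 17.9 to 59.9 in Smad4 KO (40.7 at most without replicate 1), which overlapped (log2 fold change -1.55, edgeR adjusted p = 0.18). None was called after DSS among 4 other granins tested of 5 listed (Pcsk1n, Scg5 and Scg2 had the most per kb), 4 of 5 genes of prohormone processing (Pam, Furin and Cpe), 8 of 8 of serotonin handling (Maoa, Ddc and Gch1) or 8 of 12 nutrient and microbial sensors (Ffar4, Ffar2 and Olfr78). On water, none of these lists had a gene called.

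Of 15 other gut hormone genes 6 were tested and none was called. Gip, Gast and Vip had at most 4, 0 and 1 counts in any library. Guca2a, the guanylin precursor, Tac1, which encodes substance P, and Guca2b, the uroguanylin precursor, were highest per kb. Tac1 had 1185 to 1964 normalized counts in WT and 889 to 4033 in Smad4 KO on water. After DSS it had 2376, 5516 and 2835 in WT and 9359, 4557 and 5327 in Smad4 KO. In both genotypes every DSS library was above every water library, where 12.8% of all tested genes were higher without overlap in WT and 4.6% in Smad4 KO. The log2 fold changes of Tac1 were 1.19 (SE 0.28, edgeR adjusted p = 0.088) in WT and 1.52 (SE 0.47, edgeR adjusted p = 0.70) in Smad4 KO, neither past the threshold. Of 18 listed hormone receptors 9 were tested and none was called after DSS, the highest per kb being Sort1, Htr4 and Npy1r, while the secretin receptor Sctr had at most 3 counts, Glp1r 3, Gcgr 1, Cckar 1 and Rxfp4 7 in any library, and Cckbr, Ntsr1, Ntsr2 and Htr3a had 0.

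The tested genes next to Sct on chromosome 7 were not called in either genotype comparison. After DSS, the flanking Cdhr5 differed by -0.36 (edgeR adjusted p = 0.15) and Irf7 by -0.85 (edgeR adjusted p = 0.084). On water they differed by -0.65 (edgeR adjusted p = 0.16) and -1.19 (edgeR adjusted p = 0.16). Drd4, on the other side of Sct, averaged 0.46 normalized counts over the libraries and was not tested. The 7 tested neighbours, Rassf7, Phrf1, Irf7, Cdhr5, Deaf1, Tmem80 and Eps8l2, had lower means in Smad4 KO in both comparisons, by -0.85 to -0.04 after DSS and -1.19 to -0.15 on water on the log2 scale. Of all tested genes 49.6% were lower after DSS and 50.6% on water. The part of the region in the Sct difference was not tested. Of the markers of other cells, a list of 10 fibroblast and smooth muscle genes differed between the genotypes after DSS. Of 7 tested, 3 were called higher in Smad4 KO after DSS (Col3a1, Col1a1 and Col1a2), where 0.331% of all tested genes were called higher. The summed level after DSS was 61.6 to 88.5 normalized counts in WT and 195 to 306 in Smad4 KO. On water 0 of the 7 were called, and the sum was 61.9 to 165 in WT and 68.0 to 615 in Smad4 KO. Pdgfra and Lum had at most 10 and 1 counts in any library. Colonocyte and goblet lists had 3 of 7 and 2 of 8 genes called lower after DSS and the colon epithelium list 1 of 10 (Krt20), where 0.416% of all tested genes were called lower. Of 6 stem cell genes 1 was called higher (Smoc2), where 0.747% of all tested genes were called in either direction. In this list 4 were higher and 2 lower in Smad4 KO after DSS, with a median of 0.89. An unadjusted p below 0.05 was found for 5 of the 6, where 15.4% of all tested genes had one. The part of these shifts in the Sct difference was not tested.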

How the data were processed

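RNA-seq was done on colon epithelium in 14 libraries. Reads were mapped by the authors with HISAT2 on mm9, and they deposited whole-number featureCounts counts per gene for 37680 genes, without normalization or pooling, of which 14001 genes were 0 in every library. The annotation and the strand setting are not given in the sources used here. Groups were taken from the labels.

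The 15127 genes that reached 10 counts in 3 or more libraries entered edgeR 4.0.16 (TMM scaling, quasi-likelihood test, two-sided, Benjamini-Hochberg threshold 0.05), each comparison fitted on its own groups as the authors tested pairwise, and the difference of the DSS responses on all 14. Normalized counts are TMM-scaled counts. Alternatives were DESeq2 1.42.0, other models, scalings, filters, blocks and libraries left out, and the mitochondrial share as a covariate and combined settings were added after seeing the data. Fits were tested on simulated data. Positions come from GENCODE M1. The 10 genes, the gene lists and the tests were chosen with earlier results of these data known. Named genes are the 10, list genes called (up to 5) or otherwise the 3 highest per kb, and the genes most alike, and others were named after their values were seen. Depth was 12882827 to 26087231 counts per library. R 4.3.3 and Python 3.11.15 were used.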

Additional observations from a re-analysis of the deposited data

How the results depend on the processing

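Of the 10 genes, edgeR called 1 after DSS between the genotypes and 0 in the other comparisons. After DSS, DESeq2 called 2, and 0 were called with all 14 libraries in 1 model, with 13 in 1 model, with the prefix of the library names as a block and with the mitochondrial share as a covariate, and leaving out 1 library gave 0 to 1. On water 1 was called by DESeq2, by the models of 14 and of 13 libraries and without a filter on low counts. The prefix block called 2 there (Sct and Gcg), in a fit that called 2018 of all 15127 tested genes. Leaving out 1 library gave 0 to 1 on water. For DSS in WT, DESeq2 called 1. The cause was not tested.

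The replicate number as a block gave 0 calls after DSS (Sct adjusted p = 0.081) and 1 on water (Sct, edgeR adjusted p = 0.033), moved the calls over all genes from 113 to 57 and from 1 to 473, and turned Sst on water to -0.062 and Cck for DSS in Smad4 KO to 0.15. Deviations of same-numbered libraries correlated between -0.14 and 0.50, with no common sign. The highest, 0.50, was for replicate 4 of WT and replicate 4 of Smad4 KO on water, both named with the prefix MP. The labels do not state a pairing by number, and these correlations do not settle whether there was one.

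Sct was lower in Smad4 KO in all settings of both genotype comparisons. Signs turned only for log2 fold changes that did not pass. After DSS, Chga was -0.074 with the mitochondrial covariate and -0.16 to 0.25 on leaving out 1 library. On water, Pyy was 0.10 with the prefix block, 0.026 with the covariate and -0.26 to 0.12 on leaving out 1 library; Chga was 0.29 with the prefix block and -0.22 to 0.073 on leaving out 1; Sst was -0.47 without libraries above 20% mitochondrial counts and -0.33 to 0.37 on leaving out 1; and Insl5 was 0.014 with the prefix block, 0.048 without those libraries and -0.59 to 0.16 on leaving out 1.

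For DSS in WT, Gcg was -0.086 with the prefix block, -0.095 without libraries above 20% mitochondrial counts, -0.13 with the covariate and -0.037 to 0.42 on leaving out 1 library, where Chgb ran from -0.36 to 0.095, Tph1 from -0.61 to 0.017 and Insl5 from -0.29 to 0.048.
For DSS in Smad4 KO, with the mitochondrial covariate and without replicate 1 on water, Sct was 0.23, Pyy 0.31, Cck 0.17, Sst 0.15 and Insl5 0.028; with the covariate alone Cck was 0.44 and Sst 0.10; and on leaving out 1 library Cck ran from -0.54 to 0.024 and Chgb from -0.34 to 0.015. The difference of the DSS responses of Sct was 0.29 over 13 libraries, 0.020 with the prefix block and -0.48 to 0.32 on leaving out 1 library.

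Over all genes, DESeq2 called 485 after DSS, 646 on water, 1641 for DSS in WT and 71 in Smad4 KO, and edgeR without a filter called 345, 55, 457 and 19. The model of all 14 libraries called 2 after DSS and 1276 on water. That of 13 libraries called 8 and 1151, and the fit with the prefix block called 1 and 2018. Counts on leaving out 1 library were 27 to 96 after DSS, up to 1740 on water (without Smad4 KO replicate 4) and up to 418 for DSS in WT (without WT water replicate 2), so the number called turned on single libraries. Of the planned and added settings other than leaving out 1 library, 445 log2 fold changes of the 10 genes had the same direction and call, 21 turned sign, 9 gained and 5 lost the call. The 3 libraries per genotype after DSS limit the precision there, as do the low counts of Sct in Smad4 KO (34 counts in the lowest library).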
